A study of Mus musculus with 12 samples.

Results

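The endoplasmic reticulum (ER) unfolded protein response was followed through 10 genes, Xbp1, Atf6, Ern1, Herpud1, Sdf2l1, Hyou1, Pdia4, Pdia6, Creld2 and Manf. They were taken from the count table by symbol, and each of them was found once among its 25171 loci. All 10 are protein-coding genes, with between 3 (Sdf2l1) and 26 (Hyou1) exons. The count table holds 12 mouse hearts in 4 groups of 3, from the EIIa and Myh6 models of NOTCH2NLC-(GGC)98, the human gene NOTCH2NLC with 98 GGC repeats. All mice carried this transgene at the Rosa26 site behind a stop sequence between loxP sites, which Cre recombinase removes. EIIa-tg mice (E2a in the labels) also carried an E2a-Cre that acts ubiquitously, EIIa-ctl mice were littermates without it, and both were 30 days old. Myh6-ctl and Myh6-tg mice were labelled as having Myh6-creERT2, a tamoxifen-inducible Cre under a promoter of cardiomyocytes, were injected 3 times from day 60, with corn oil alone in Myh6-ctl and with tamoxifen (75 mg per kg) in Myh6-tg mice, and were 90 days old. Tamoxifen, Cre activation, the transgene and any difference in the creERT2 allele cannot be told apart in the Myh6 comparison, and whole heart RNA was read although the Myh6 promoter acts in 1 cell type.

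Proteins that enter the ER are folded there by chaperones and by oxidoreductases that form disulfide bonds. When unfolded proteins accumulate, 3 sensors in the ER membrane respond. IRE1 alpha, encoded by Ern1, cuts a short segment out of the Xbp1 messenger RNA, which shifts the reading frame and yields the active transcription factor. ATF6 is moved to the Golgi, where proteases release its transcription factor part, and PERK, encoded by Eif2ak3, phosphorylates a translation initiation factor and so favours translation of ATF4. ATF6 and spliced XBP1 act on DNA elements in the promoters of chaperone, oxidoreductase and ER-associated degradation genes. In the heart this response is known mostly from overload, ischaemia and cardiomyopathy.

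The segment that IRE1 alpha removes is 26 bases long, and it was found in the GENCODE transcript Xbp1-201 at bases 818 to 843. It is shown, in capitals and written with T, because the counts of each gene do not separate Xbp1 messenger with this segment from messenger without it.

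Xbp1: agCACTCAGACTATGTGCACCTCTGCAGca

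The promoter elements were searched on both strands of RefSeq windows (GRCm38.p6) reaching from 250 bases before to 50 bases after each start site. The letters searched were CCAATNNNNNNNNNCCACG for the ER stress response element (ERSE), ATTGGNCCACG for ERSE-II and TGACGTGG for the unfolded protein response element (UPRE). Windows were given for 7 of the 10 genes, without Atf6, Manf and Hyou1. The end of the Pdia4 window was found in no GENCODE transcript of that gene, unlike the ends of the other windows. The place of the Pdia4 window could therefore not be checked. The matches are shown because they are the only ones in these 7 windows, with the fixed letters of each motif in capitals and 5 bases on either side, and no match overlapped another.

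Herpud1: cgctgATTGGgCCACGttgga

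Pdia6: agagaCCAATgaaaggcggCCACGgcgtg

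Creld2: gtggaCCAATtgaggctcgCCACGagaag

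The ERSE-II of Herpud1 lies at chr8:94386377-94386387 on the + strand, between 52 and 42 bases before the start site. The ERSE of Pdia6 lies at chr12:17266491-17266509 on the + strand, 98 to 80 bases before it. That of Creld2 lies at chr15:88819520-88819538 on the - strand, opposite to the gene, 126 to 108 bases before its start site, in the 328 bases between Creld2 and the divergent gene Alg12. An ERSE was present for 2 of these 7 genes and for 37 of all 27025 genes with a window (0.137%), an ERSE-II for 1 of 7 and 12 of 27025 (0.0444%), and a UPRE for 0 of 7 and 193 of 27025 (0.714%). Among 86 other genes of the pathway with a window, 8 held an ERSE, among them Hspa5, Hsp90b1, Calr, Canx and Dnajc3, 1 held an ERSE-II (Dnajb11) and 6 held a UPRE. A match of letters is a description and does not show that a factor binds there.

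Between 38343106 and 50969834 reads were counted per heart, and the 10 genes had between 201 counts (Sdf2l1) and 14241 counts (Herpud1) in a heart, far above the floor of 3 counts (0.0589 to 0.0782 CPM, where CPM are counts scaled to a common library total), which covers counting error only. Levels are given below as CPM normalised between hearts by the TMM factors of edgeR. The labels were checked first. The 7 cardiomyocyte markers were present in every heart, with a summed level from 8451 to 45947 CPM. Esr1, the oestrogen receptor gene, a mutated ligand-binding part of which is joined to Cre in creERT2, was at 1067 to 2023 CPM in the 3 Myh6-ctl hearts and at 1.31 to 3.03 CPM in the 3 Myh6-tg hearts, against 0.364 to 1.24 CPM in the 6 EIIa hearts, which goes against labels that give creERT2 to both Myh6 groups. The groups are named as labelled, and RNA of the transgene was not analysed here. Mitochondrially encoded genes (13 in the table) took 31.8% to 38.3% of the counts of a Myh6-ctl heart and 15.5% to 18.6% of those of a Myh6-tg heart, against 28.5% to 36.7% in the EIIa hearts.

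Levels between genes were compared per length, as the FPKM of the authors. Herpud1 stood highest with a mean of 114 FPKM over the 12 hearts, and was above the next gene in 12 of 12 hearts. Xbp1 (45.9 FPKM) and Pdia6 (39.4 FPKM) followed, and Xbp1 was above Pdia6 in 8 of 12 hearts. Manf had 17.3 FPKM, Atf6 13.3 FPKM and Pdia4 11.9 FPKM. The order of Atf6 and Pdia4 held in 7 of 12 hearts and was not beyond their spread. Creld2 (9.57 FPKM), Hyou1 (8.12 FPKM) and Sdf2l1 (5.78 FPKM) were lower. Ern1 stood lowest in the order, with 1.11 to 5.48 FPKM, and Sdf2l1 was above it in 12 of 12 hearts. The plot of FPKM shows this order. For Xbp1 and Atf6 the 3 Myh6-tg hearts had the highest FPKM of the 12, and for Ern1 2 of them did. The median of all genes moved up by 0.35 on log2(FPKM + 1) in the Myh6 comparison. As normalised CPM the order held for Atf6 and Ern1. For Xbp1, Myh6-ctl replicate 2 (110.0 CPM) then lay above Myh6-tg replicate 1 (108.3 CPM).

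**Figure D1:**
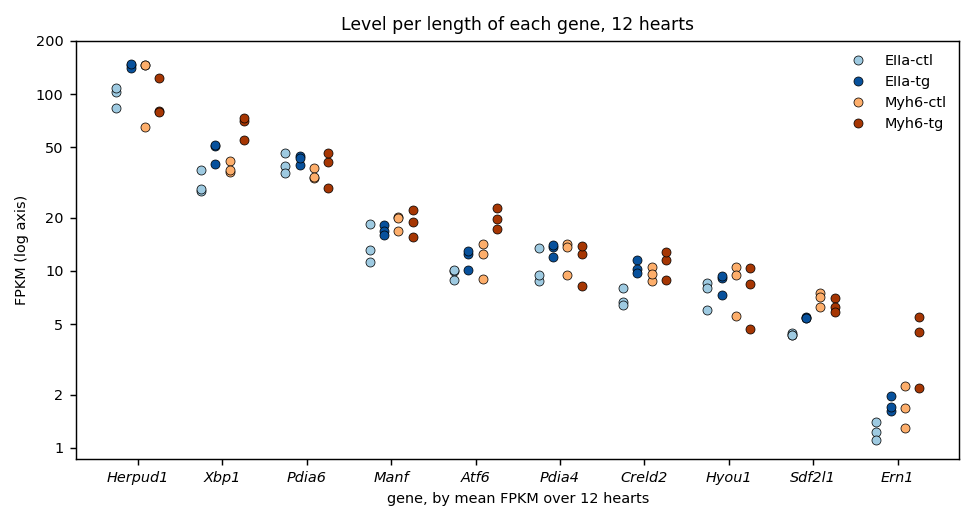
FPKM (log axis) of the 10 genes in each of the 12 hearts, ordered by the mean over hearts, with 1 point per heart coloured by group. Herpud1 lies above the other genes in 12 of 12 hearts and Ern1 has the lowest mean, with values from 1.11 to 5.48 FPKM.

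In EIIa-tg hearts at day 30, 0 of the 10 genes passed an adjusted p under 0.05 (edgeR's quasi-likelihood test with Benjamini-Hochberg adjustment over 14908 genes), where 17% of all genes tested did (8.65% higher and 8.3% lower). Of the 10, 3 had an unadjusted p under 0.05, as did 34.9% of all genes. The log2 fold change was above 0 for 9 of the 10, with a median of 0.13 beside 0.02 over all genes. DESeq2 called 1 of them (Xbp1), beside 21.0% of all genes, and limma on log2(FPKM + 1) called 3 (Xbp1, Herpud1 and Creld2), beside 23.9% of all genes.

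Xbp1 (ENSMUSG00000020484, chr11:5520659-5525893 of GRCm38, + strand) was at 69.9, 86.3 and 69.7 CPM in the EIIa-ctl hearts and at 108, 88.5 and 100.3 CPM in the EIIa-tg hearts. The groups did not overlap, although the lowest EIIa-tg heart lay just above the highest control. The log2 fold change was 0.40 (standard error 0.12, 95% interval 0.12 to 0.68), with an adjusted p of 0.0542 by edgeR. This gene passed the threshold with DESeq2 (adjusted p = 0.0231), and with edgeR when EIIa-ctl replicate 2 or EIIa-tg replicate 2 was left out (adjusted p = 0.0402 and 0.0234). These leave-out fits called 11.7% and 26.6% of all genes. In 4 of 6 fits with a heart left out Xbp1 was not called, with an edgeR adjusted p up to 0.185.

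Herpud1 (ENSMUSG00000031770, chr8:94386438-94395377, + strand) encodes an ER membrane protein of the degradation machinery. It had 232, 173 and 241 CPM in EIIa-ctl and 281, 276 and 258 CPM in EIIa-tg hearts. The groups did not overlap, with a spread of 12.1 CPM (SD, n = 3) compared with 36.8 CPM. Its log2 fold change was 0.34 (standard error 0.13, edgeR adjusted p = 0.114). A 535-base stretch is shared with the antisense gene Gm15890, and the strand setting of the counting is not given in the sources used here.

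Creld2 (ENSMUSG00000023272, chr15:88819646-88826683, + strand), which encodes an ER-resident and secreted protein with EGF-like repeats, had 10.9, 11.9 and 10.2 CPM in EIIa-ctl hearts and 16.04, 14.6 and 12.4 CPM in EIIa-tg hearts. The groups again did not overlap (log2 fold change 0.39, standard error 0.14, edgeR adjusted p = 0.0852). Xbp1, Herpud1 and Creld2 were the 3 of 10 genes without overlap in this comparison, each with the higher values in EIIa-tg hearts, beside 20% of all genes without overlap in that direction and 41.1% in either.

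The sensors Atf6 and Ern1 overlapped between the EIIa groups. Atf6 (ENSMUSG00000026663, chr1:170704674-170867771, - strand) had a log2 fold change of 0.09 (95% interval -0.17 to 0.35) and Ern1 (ENSMUSG00000020715, chr11:106394650-106487852, - strand) one of 0.29 (95% interval -0.03 to 0.60). The lowest EIIa-tg heart of Ern1, at 11.4 CPM, lay just below the highest control at 11.5 CPM. The chaperones and oxidoreductases differed little between the groups. Hyou1, an ER chaperone of the Hsp70 family, had a log2 fold change of 0.07, Pdia4 of 0.14, Sdf2l1 of 0.12, and Manf, a secreted trophic factor, of 0.04. Pdia6 was the gene below 0 (-0.12, 95% interval -0.36 to 0.12), and it was at 0.08 on log2(FPKM + 1), where the median gene moved by 0.18. The upper bounds of these 5 intervals lay between 0.12 and 0.48 on the log2 scale.

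**Figure D2:**
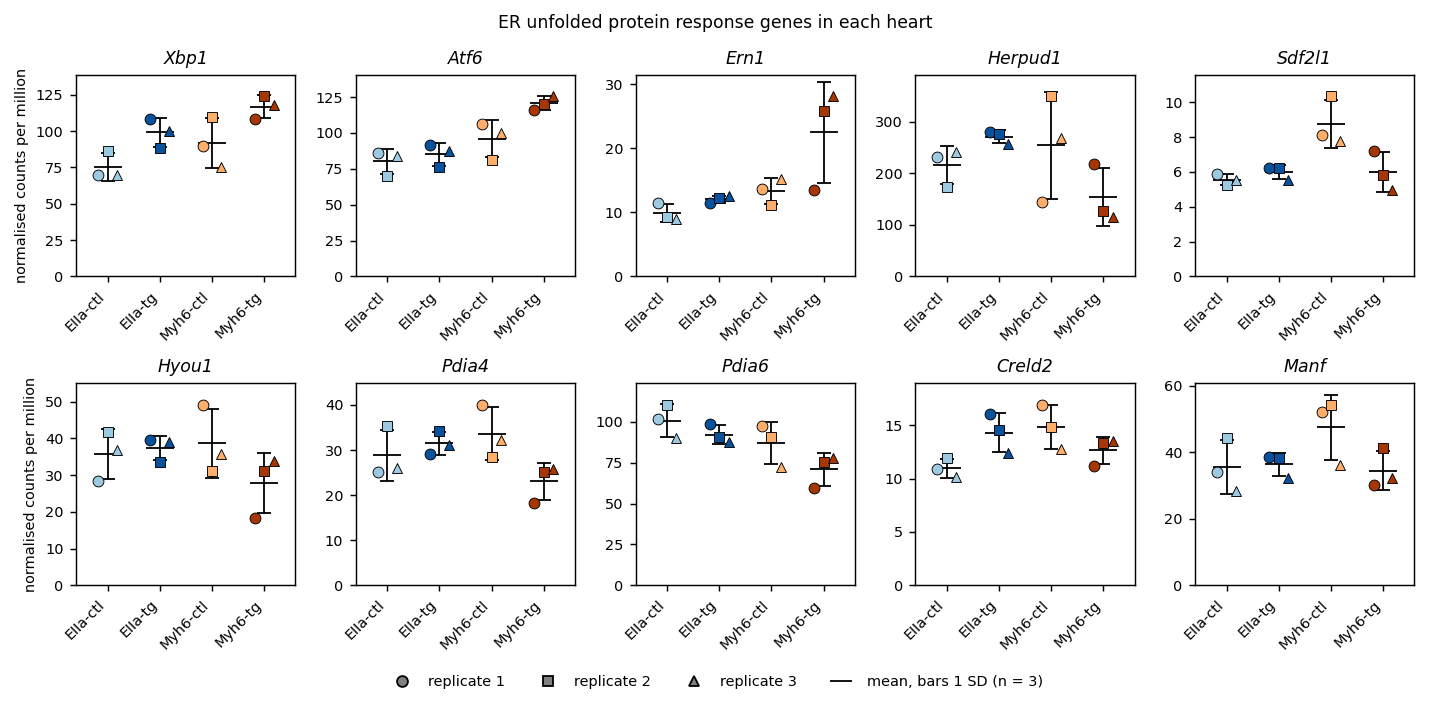
Normalised CPM of the 10 genes in each heart, with 1 point per heart (the symbol gives the replicate number), the mean as a line and bars of 1 SD (n = 3), each panel starting at 0. Xbp1, Herpud1 and Creld2 do not overlap between EIIa-ctl and EIIa-tg hearts, and Sdf2l1 and Pdia4 lie below all controls in the 3 Myh6-tg hearts.

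Macrophage and fibroblast markers moved with the EIIa groups. All 6 macrophage markers were called higher, with a summed level of 393 to 607 CPM in EIIa-ctl and 859 to 1129 CPM in EIIa-tg hearts. Of 7 fibroblast markers 2 were called higher (summed level 1483 to 2156 and 2714 to 3921 CPM), and of 7 cardiomyocyte markers 1 was called lower (37869 to 45947 and 18490 to 33494 CPM). Of 5 endothelial markers 3 were called lower (880 to 1006 and 659 to 763 CPM). Cdh5 and Kdr, which define endothelial cells, were among them. Of 6 smooth muscle and pericyte markers Cnn1 was called higher (summed level 1162 to 1399 and 949 to 1289 CPM). B and plasma cell markers, of cell types rich in Xbp1, summed to 12.6 to 13.8 and 14.6 to 16.02 CPM, with 0 of 7 called. The part of these cell types in the values of the 10 genes was not tested. In whole heart RNA, fewer cells of a type and less RNA per cell cannot be told apart.

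In Myh6-tg hearts at day 90 the sensor genes and Xbp1 had mean levels above the controls and the genes of folding, degradation and secretion had mean levels below them, but 0 of 10 passed an adjusted p under 0.05 (edgeR, 15298 genes), where 18.3% of all genes did (8.96% higher and 9.38% lower). At an unadjusted p under 0.05 there were 2 of 10, Ern1 and Pdia4, beside 34.1% of all genes. DESeq2 called 0 of the 10, beside 21.9% of all genes, and limma on log2(FPKM + 1) called 2 (Xbp1 and Atf6), beside 32.7% of all genes. The log2 fold change was above 0 for Xbp1, Atf6 and Ern1. It was below 0 for the other 7, which are called effectors here for their roles in folding, degradation and secretion, with a median of -0.45 beside 0.03 over all genes. On log2(FPKM + 1), where the median of all genes moved by 0.35, and with library totals alone, where it moved by 0.39, Creld2 and Pdia6 were above 0 and the other 5 effectors were below it.

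Ern1 had 13.7, 11.2 and 15.1 CPM in the Myh6-ctl hearts and 13.5, 25.9 and 28.1 CPM in the Myh6-tg hearts. Replicates 2 and 3 of Myh6-tg were above every other heart of the study, while replicate 1 lay within the controls. Replicate 1 also stood apart over all genes of at least 1 CPM, at a Euclidean distance in log2 CPM of 109.7 and 110.1 from replicates 2 and 3, which were 53.2 apart. Y-linked genes had 7307 counts in replicate 1 and 0 in replicates 2 and 3. Sex and other traits of replicate 1 therefore cannot be told apart. The log2 fold change of Ern1 was 0.77 (standard error 0.29, 95% interval 0.09 to 1.45, edgeR adjusted p = 0.107). Without Myh6-tg replicate 1 it was 1.03 (edgeR adjusted p = 0.00893, with 26.7% of all genes called). With all 12 hearts in one edgeR fit the adjusted p was 0.0278 (31.7% of all genes called). In 5 of 6 fits with a heart left out Ern1 was not called, with values down to 0.58 and an adjusted p up to 0.309.

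Atf6 was at 106, 81.4 and 100.1 CPM in Myh6-ctl and at 116, 120.2 and 126 CPM in Myh6-tg hearts. It was the 1 gene of the 10 with all Myh6-tg hearts above the controls, beside 19.8% of all genes (log2 fold change 0.35, standard error 0.17, edgeR adjusted p = 0.199). Xbp1 had 89.9, 110.0 and 75.6 CPM in Myh6-ctl and 108, 124 and 118 CPM in Myh6-tg hearts. Replicate 2 of Myh6-ctl reached into the range of the Myh6-tg hearts, while the Myh6-tg heart was higher in 3 of 3 pairs of the same number and the groups did not overlap as FPKM. The log2 fold change of Xbp1 was 0.37 (95% interval -0.07 to 0.81, edgeR adjusted p = 0.215), close in size to that in EIIa-tg hearts.

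Herpud1 spread most of the 10 genes between the hearts of each Myh6 group, and least in EIIa-tg (coefficient of variation 4.47%). It had 144, 350.0 and 269 CPM in the Myh6-ctl hearts and 219, 128 and 116 CPM in the Myh6-tg hearts. The lowest control lay below the highest Myh6-tg heart, and the coefficient of variation was 40.8% in Myh6-ctl and 36.5% in Myh6-tg, the highest of the 10 genes in both. Its log2 fold change of -0.70 had a 95% interval from -1.57 to 0.16 (edgeR adjusted p = 0.227).

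Among chaperones, Sdf2l1 (ENSMUSG00000022769, chr16:17130138-17132383, - strand), a partner of ER Hsp40 co-chaperones, had 8.11, 10.3 and 7.78 CPM in Myh6-ctl and 7.21, 5.81 and 4.98 CPM in Myh6-tg hearts. All Myh6-tg hearts lay below all controls (log2 fold change -0.52, standard error 0.24, edgeR adjusted p = 0.167). Hyou1 (ENSMUSG00000032115, chr9:44379490-44392369, + strand) had 49.1, 31.0 and 35.7 CPM in Myh6-ctl and 18.4, 31.2 and 33.9 CPM in Myh6-tg hearts. The groups overlapped, and replicate 1 of Myh6-tg stood apart as the lowest heart of the study for this gene (log2 fold change -0.45, 95% interval -1.10 to 0.20).

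Among protein disulfide isomerases, Pdia4 (ENSMUSG00000025823, chr6:47796141-47813430, - strand) had 40.0, 28.5 and 32.2 CPM in Myh6-ctl and 18.3, 25.1 and 25.7 CPM in Myh6-tg hearts. As with Sdf2l1, the groups did not overlap (log2 fold change -0.52, standard error 0.21, 95% interval -1.01 to -0.04, edgeR adjusted p = 0.124), and these 2 of 10 genes stand beside 20.3% of all genes without overlap in that direction. With Atf6, 3 of 10 genes did not overlap, beside 40.1% of all genes in either direction. With all 12 hearts in one fit, edgeR called Sdf2l1 (adjusted p = 0.0492) and Pdia4 (adjusted p = 0.0495) lower. In that fit 31.7% of all genes were called in either direction. Pdia6 (ENSMUSG00000020571, chr12:17266545-17284770, + strand) had 97.8, 90.7 and 72.4 CPM in Myh6-ctl and 59.4, 75.7 and 77.9 CPM in Myh6-tg hearts, which overlap (log2 fold change -0.27).

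The secreted factors overlapped between the groups as well. Manf was lower in the Myh6-tg heart in 3 of 3 pairs of the same number and Creld2 in 2 of 3. With the replicate number as a block edgeR called 0 of the 10 genes, beside 20.9% of all genes. Manf (ENSMUSG00000032575, chr9:106838312-106891979, - strand) had 52.1, 54.2 and 36.3 CPM in Myh6-ctl and 30.0, 41.1 and 32.2 CPM in Myh6-tg hearts (log2 fold change -0.44, 95% interval -0.94 to 0.05). Its annotated span overlaps Dcaf1 on the other strand and Rbm15b on the same strand, so reads could be shared between these genes. Creld2 had 16.9, 14.9 and 12.8 CPM in Myh6-ctl and 11.2, 13.3 and 13.5 CPM in Myh6-tg hearts (log2 fold change -0.21, 95% interval -0.65 to 0.23).

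**Figure D3:**
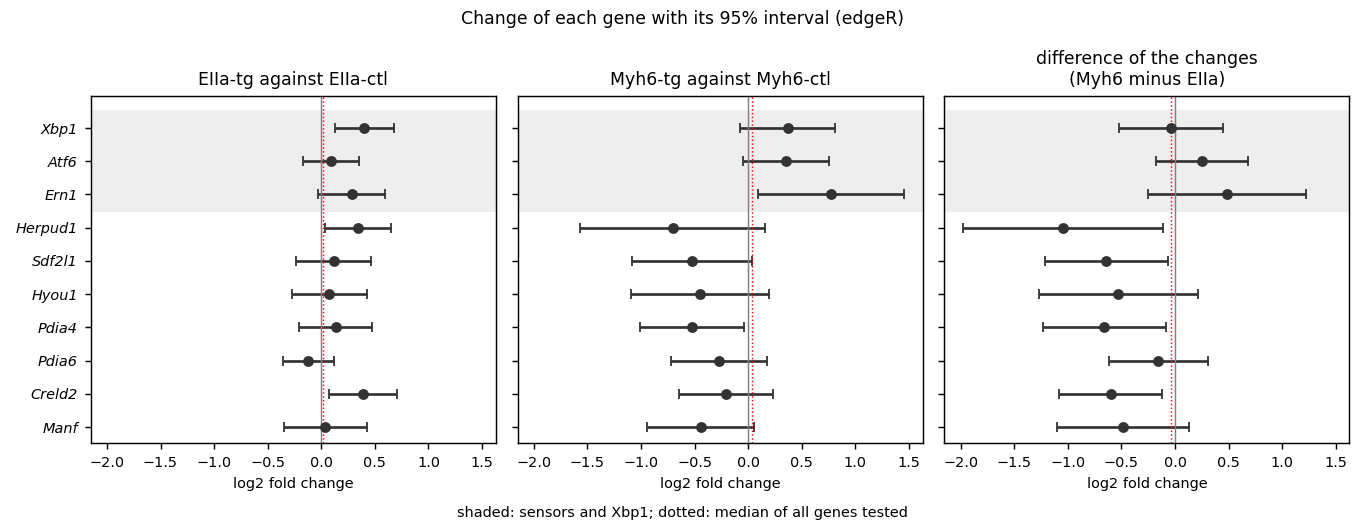
Log2 fold change of the 10 genes with 95% intervals from edgeR in the EIIa and Myh6 comparisons and the difference between them. The 7 effectors below the shaded rows lie below 0 in the Myh6 comparison (Creld2 and Pdia6 above 0 on the FPKM scale), and none of the 10 passed an adjusted p under 0.05 in any panel.

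Cell type markers moved with the Myh6 groups too. The summed cardiomyocyte markers were at 29203 to 38992 CPM in Myh6-ctl and 8451 to 28389 CPM in Myh6-tg hearts, with 4 of 7 called lower. Fibroblast markers were at 1954 to 2509 and 3251 to 7988 CPM, with Postn, Col1a1, Col1a2 and Pdgfra called higher of 7, while Lum had a log2 fold change of -0.79 (edgeR adjusted p = 0.198). Within Myh6-tg, replicate 1 had 28389 CPM of cardiomyocyte and 3251 CPM of fibroblast markers, replicate 2 had 11241 and 7639 CPM, and replicate 3 had 8451 and 7988 CPM. Macrophage markers overlapped (759 to 1282 and 849 to 1899 CPM, 0 of 6 called). Endothelial markers were at 537 to 1165 and 502 to 612 CPM (0 of 5 called), and B and plasma cell markers at 12.4 to 15.7 and 15.2 to 21.0 CPM (1 of 7 called higher, Sdc1, and 1 lower, Ms4a1). T cell markers stayed at or under 5.64 CPM in every heart. Smooth muscle and pericyte markers were at 1026 to 1279 and 924 to 1514 CPM, with Cnn1 called higher and Myh11 lower. The part of these shifts in the values of the 10 genes was not tested.

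**Figure D4:**
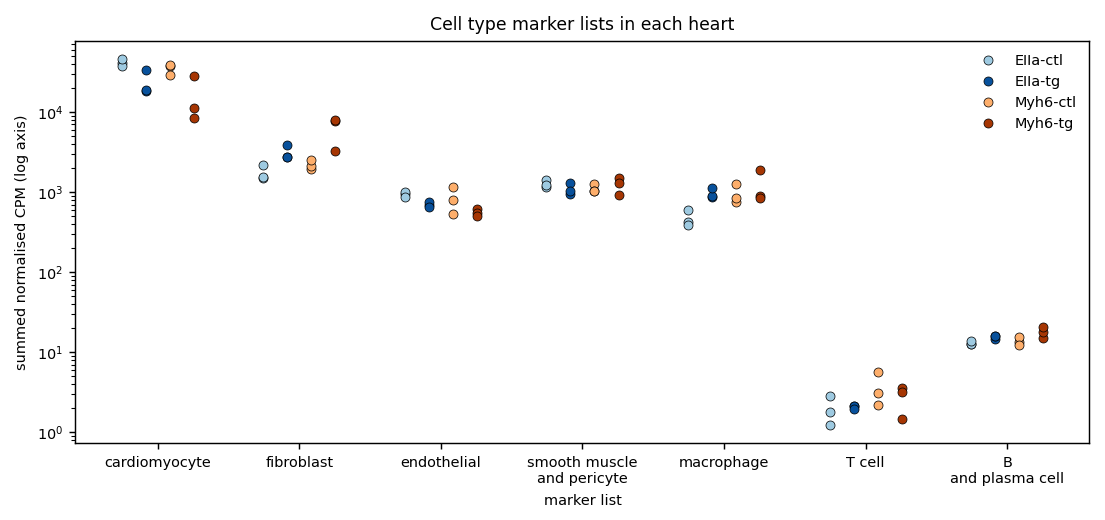
Summed normalised CPM (log axis) of 7 lists of cell type markers in each heart, 1 point per heart coloured by group. Cardiomyocyte markers lie lower and fibroblast markers higher in the transgenic hearts of both models, and T, B and plasma cell markers are near the bottom of the scale.

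The change in Myh6-tg was set against the change in EIIa-tg in one edgeR fit of all 12 hearts. For 0 of the 10 genes did the difference pass an adjusted p under 0.05, where 3.92% of 15929 genes did (1.65% higher and 2.27% lower), and DESeq2 and limma on log2(FPKM + 1) also called 0. At an unadjusted p under 0.05 there were 4 of 10, beside 19.4% of all genes. These 4 were all effectors with a lower value in the Myh6 model, Herpud1 (-1.04, standard error 0.43, adjusted p = 0.204), Pdia4 (-0.66, adjusted p = 0.189), Sdf2l1 (-0.64, adjusted p = 0.202) and Creld2 (-0.60, adjusted p = 0.154). The difference contains the Myh6 change itself, so the median of -0.60 over the 7 effectors, beside -0.04 over all genes, is no separate evidence of direction. Pdia6 (-0.16) was above 0 on the FPKM scale. Without Myh6-tg replicate 1, the heart of its group with counts of Y-linked genes, the difference of Herpud1 was -1.39 (edgeR adjusted p = 0.0416), where 10.6% of all genes passed. In 11 of 12 fits with a heart left out it did not pass. Its values in these fits reached -0.75, and the edgeR adjusted p reached 0.359. The difference of Xbp1 was -0.04 with a 95% interval from -0.52 to 0.44, and it was 0.18 on log2(FPKM + 1).

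The controls of the models differ in age, Cre line and injection, which cannot be told apart. They share samples with the comparisons above. Of the 10 genes, 0 passed an adjusted p under 0.05 by edgeR between Myh6-ctl and EIIa-ctl hearts, where 0.0334% of 14990 genes did (0.02% higher and 0.0133% lower). DESeq2 and limma on log2(FPKM + 1) called 0 as well, and 3 of 10 had an unadjusted p under 0.05, beside 11.3% of all genes. These were Sdf2l1 (log2 fold change 0.66, 95% interval 0.23 to 1.10, adjusted p = 0.233), Creld2 (0.45, adjusted p = 0.373) and Ern1 (0.44, adjusted p = 0.427). Sdf2l1 had 5.87, 5.28 and 5.53 CPM in the EIIa-ctl hearts, all below the 3 Myh6-ctl hearts. Sdf2l1 and Creld2 were the 2 genes of the 10 without overlap, beside 17.5% of all genes (8.34% higher and 9.12% lower in Myh6-ctl). The summed macrophage markers were at 393 to 607 CPM in EIIa-ctl and 759 to 1282 CPM in Myh6-ctl hearts, and their part was not tested.

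Set side by side over the 12 hearts, the effectors had their highest heart in Myh6-ctl for 6 of 7 and in EIIa-ctl for 1 (Pdia6). Their lowest heart was a Myh6-tg heart for 5 of 7, and an EIIa-ctl heart for Creld2 and Manf. Xbp1, Atf6 and Ern1 had their highest heart in Myh6-tg and their lowest in EIIa-ctl. The highest heart was between 1.67 times (Creld2) and 3.16 times (Ern1) the lowest. The median coefficient of variation of the 10 genes within a group was lowest in EIIa-tg (8.47%), followed by EIIa-ctl (13.3%), Myh6-ctl (16.8%) and Myh6-tg (17.4%).

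The mean standardised log2 CPM of the 7 effectors summarised each heart. It was lowest in Myh6-tg replicate 1 (-1.19) and Myh6-tg replicate 3 (-0.66), followed by EIIa-ctl replicate 3 (-0.47) and Myh6-tg replicate 2 (-0.46). Myh6-ctl replicates 1 (1.00) and 2 (0.87) stood highest. Over the 12 hearts, the genes most like this summary among 13090 genes with a mean of at least 1 CPM were Sox18, a transcription factor of endothelial cells (Pearson's r = 0.95), Nup35, a nuclear pore protein (0.95), 2700097O09Rik (0.90), the chemokine Ccl7 (0.89) and B4galt4, a Golgi galactosyltransferase (0.88). These are the highest of many values over hearts that share their libraries and groups, and they are given as a description.

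Around the 10 genes, 102 other genes of ER protein handling were read in 6 lists. All were found, and 101 passed the filter on low counts in the EIIa and Myh6 comparisons, without Ern2. Ddit3 stands on 2 rows, of which the one with counts was used. In EIIa-tg hearts 18 of 101 were called by edgeR (14 higher and 4 lower, median log2 fold change 0.12), a share close to the 17% of all genes. On log2(FPKM + 1), where the median gene moved by 0.18, 33 were called by limma, all higher, beside 23.9% of all genes. With EIIa-ctl replicate 1 or 3, or EIIa-tg replicate 1 or 3, left out, 0 were called, as were at most 0.877% of all genes. Without EIIa-ctl replicate 2 there were 12 (11.7% of all genes), and with all 12 hearts in one fit 1 (1.43%). In Myh6-tg hearts 25 of 101 were called (23 higher and 2 lower, median 0.35), beside 18.3% of all genes. This number was 3 without Myh6-ctl replicate 1 (5.01% of all genes), 16 without Myh6-ctl replicate 2 (11.02%) and 13 without Myh6-ctl replicate 3 (10.3%). It was 32 without Myh6-tg replicate 1 (26.7%), 7 without Myh6-tg replicate 2 (6.23%) and 6 without Myh6-tg replicate 3 (6.17%), so without Myh6-ctl replicate 1 or Myh6-tg replicate 3 the pathway genes were not called more often than all genes. Called in both comparisons were 11 genes, 61.1% of the EIIa calls and 44% of the Myh6 calls, 10 of them higher in both and 1 (Cdnf) lower in both. At an adjusted p under 0.01 and a fold change of at least 2, 4 genes passed by edgeR in Myh6-tg (Creb3, Qsox1, Ubxn4 and Ppp1r15a), beside 3.97% of all genes. In EIIa-tg 0 passed by edgeR, where 0% of all genes did. The paper, with DESeq2 at these thresholds, reported differing genes in both models, so the 0% is given for edgeR's test only. In the difference Qsox1 passed these thresholds, beside 0.622% of all genes.

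The ER chaperones were not called more often than all genes in EIIa-tg, and about as often in Myh6-tg hearts. Of 21 measured, 1 was called in EIIa-tg hearts, Cdnf, a paralog of Manf, which fell by 0.57 on the log2 scale (edgeR adjusted p = 0.0464). In Myh6-tg hearts 4 were called. Cdnf fell by 1.10 (adjusted p = 0.0111), Fkbp14, a prolyl isomerase, rose by 0.86 (adjusted p = 0.0138), Dnajb11, an ER Hsp40, rose by 0.59 (adjusted p = 0.0366), and Serpinh1, the collagen chaperone, named after its value was seen, fell by 0.84 (adjusted p = 0.0379). Hspa5, the chaperone BiP and the textbook readout of the response, had log2 fold changes of -0.34 in EIIa-tg (adjusted p = 0.0929) and -0.27 in Myh6-tg (adjusted p = 0.496), the latter 0.05 on log2(FPKM + 1). Hsp90b1, which encodes GRP94, had -0.24 (adjusted p = 0.145) and -0.49 (adjusted p = 0.140), and Dnajc1 had 0.39 in EIIa-tg (adjusted p = 0.0783).

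Genes of disulfide exchange were called for 3 of 13 in EIIa-tg and 2 of 13 in Myh6-tg hearts, near the 17% and 18.3% of all genes. Qsox1, a secreted sulfhydryl oxidase, rose by 0.72 in EIIa-tg (edgeR adjusted p = 0.0251) and by 2.40 in Myh6-tg (adjusted p = 0.00165). Prdx4, the ER peroxiredoxin, rose by 0.64 in EIIa-tg (adjusted p = 0.0411), and had a log2 fold change of 1.05 in Myh6-tg (adjusted p = 0.0718, and 0.0117 with the replicate number as a block). Tmx1, a membrane-bound oxidoreductase, fell by 0.65 in EIIa-tg (adjusted p = 0.0365). P4hb, the founding protein disulfide isomerase and a collagen prolyl hydroxylase subunit, rose by 1.01 in Myh6-tg (adjusted p = 0.0247), unlike Pdia4 and Pdia6, whose values were below 0.

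Genes of ER-associated degradation, the process that Herpud1 serves, were called higher for 6 of 24 in Myh6-tg hearts, beside 8.96% of all genes. Of these 24, 22 were above 0, beside 7964 of 15298 genes tested, and the median was 0.51 beside 0.03. Ubxn4 (1.06, edgeR adjusted p = 0.0070) and Ufd1 (1.02, adjusted p = 0.0131), which work with the ATPase p97, and Edem2 (0.77, adjusted p = 0.0275), which trims mannose, were among those called. With a heart left out, the call of Ubxn4 held in 6 of 6 fits, of Ufd1 in 3 and of Edem2 in 1. Herpud2, the paralog of Herpud1, rose by 0.59 in EIIa-tg (adjusted p = 0.0227) and by 0.64 in Myh6-tg (adjusted p = 0.0471). In EIIa-tg hearts 4 of 24 were called, near the 17% of all genes. Besides Herpud2, these were Erlec1, an ER lectin, which fell by 0.64 (adjusted p = 0.0222), and, named after their values were seen, Ube2j1 and Aup1, which rose by 0.38 and 0.37 (adjusted p = 0.0323 and 0.0368).

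Of 26 genes of translocation and ER to Golgi traffic, 5 were called in EIIa-tg and 4 in Myh6-tg hearts, near the 17% and 18.3% of all genes. Spcs3, a subunit of the signal peptidase, rose by 0.64 (edgeR adjusted p = 0.0269) and 1.35 (adjusted p = 0.0110), and Arfgap3 by 0.49 (adjusted p = 0.0449) and 0.96 (adjusted p = 0.0207). Lman1, a cargo receptor, fell by 0.40 in EIIa-tg (adjusted p = 0.0209). Sec61a1, the channel of the translocon, rose by 0.65 in Myh6-tg (adjusted p = 0.0393). Spcs1 and Spcs2 in EIIa-tg and Sec24d in Myh6-tg were the others, all higher, and are named after their values were seen.

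Of 7 other sensors, transcription factors and proteases measured, Creb3, a membrane-bound transcription factor cut like ATF6, rose by 0.57 in EIIa-tg (edgeR adjusted p = 0.0366) and by 2.18 in Myh6-tg (adjusted p = 0.00991). Its relative Creb3l2 rose by 0.80 in Myh6-tg (adjusted p = 0.0157) and had -0.01 in EIIa-tg. Mbtps2, the site-2 protease that acts on ATF6, had a log2 fold change of 0.31 in EIIa-tg (adjusted p = 0.264). Eif2ak3 had -0.10 (adjusted p = 0.741) and 0.55 (adjusted p = 0.118).

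The list of the PERK arm and ATF4 targets was called higher for 4 of 10 genes in EIIa-tg (median 0.70) and 7 of 10 in Myh6-tg hearts (median 1.45), with Atf4 at 0.75 and 1.15, Ppp1r15a at 1.62 and 2.49, and Trib3 (1.31) and Chac1 (2.09) in Myh6-tg, beside 8.65% and 8.96% of all genes called higher. The EIIa calls are among those lost with EIIa-ctl replicate 1 or 3, or EIIa-tg replicate 1 or 3, left out. Ddit3, which encodes CHOP, had 0.46 (edgeR adjusted p = 0.0547) and 0.81 (adjusted p = 0.139, and 0.0446 with the replicate number as a block).

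**Figure D5:**
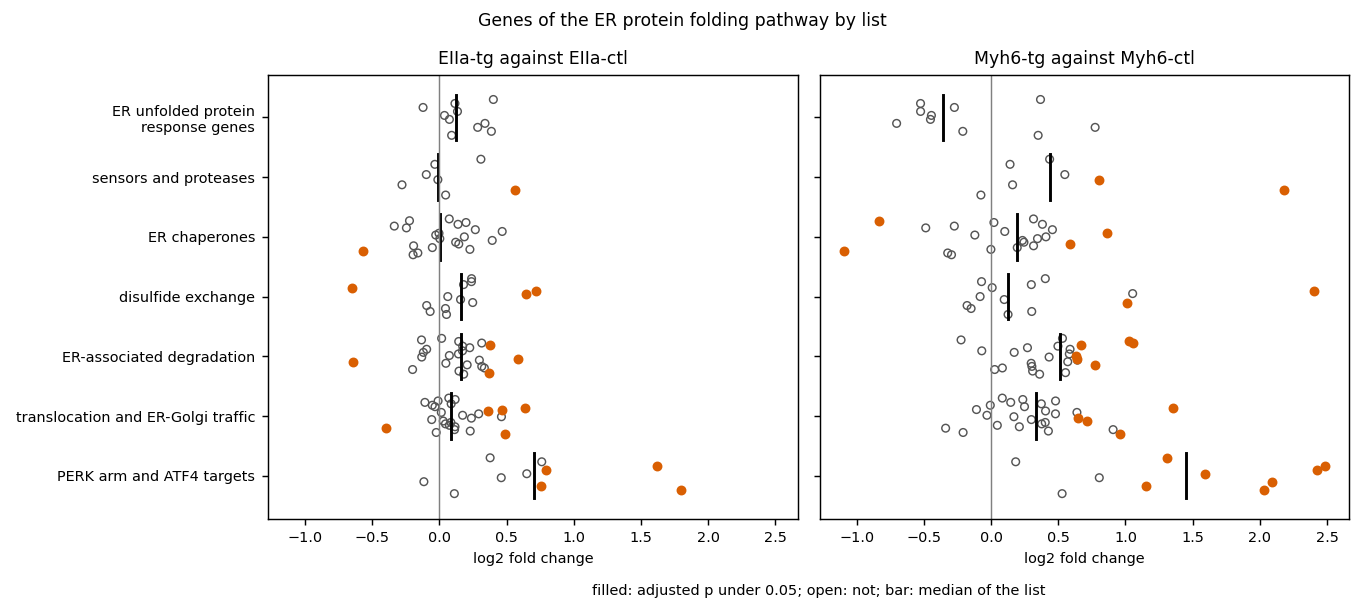
Log2 fold change of every tested gene of the 10 and of 6 lists of ER protein handling in the EIIa (left) and Myh6 (right) comparison, filled where the adjusted p was under 0.05, with the median of each list as a bar. The 10 genes have medians of 0.13 and -0.36 and no filled point, and the list of the PERK arm and ATF4 targets has the highest medians, 0.70 and 1.45.

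Outside the 10 genes, 27 genes of the count table had an ERSE in their window (1 of them, Ero1b, matched by its older symbol), of which 17 were tested, a list formed after values had been seen. In EIIa-tg hearts 0 of them were called by edgeR, beside 17% of all genes, and 2 had an unadjusted p under 0.05, beside 34.9%. Their median log2 fold change was -0.12, beside 0.02 over all genes. In Myh6-tg hearts the median was -0.17, beside 0.03 over all genes. Only 1 was called, where 18.3% of all genes were. This was Acacb, an enzyme of fatty acid metabolism, which fell by 1.70 (edgeR adjusted p = 0.00266). The 17 tested genes include the 8 other pathway genes with an ERSE, such as Hspa5 and Hsp90b1. Their medians are therefore not separate from the lists above.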

How the data were processed

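RNA of 12 hearts was read in 2 deposited tables. The extract protocol speaks of brain, while the other labels say heart. Per the paper, 150 bp paired-end reads were mapped to GRCm38 with Hisat2. The submitters' processing notes name HISAT2 2.0.4, StringTie 2.2.1 and DESeq2, with GRCm39 and mm10, and the annotation and strand setting of the counting are not given in the sources used here. The authors deposited read counts per gene, whole numbers without normalization, and FPKM values, which the authors scaled to transcript length and to the fragments mapped. Totals ran from 38343106 to 50969834 counts per heart, and no column of another series was present.

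Titles gave the groups, because the genotype field differs between the 3 EIIa-tg replicates. Counts of Y-linked genes were found in every replicate 1, while the other hearts had at most 2. By these counts the male heart of each group is its replicate 1, so leaving replicate 1 out also removes the male heart. The labels call the replicates biological. In R 4.3.3, edgeR 4.0.16 (filterByExpr, TMM factors, then glmQLFit and glmQLFTest) tested the counts in the 6 hearts of a comparison, or all 12 for the difference. P-values were adjusted over all genes tested, and a gene was called at an adjusted p under 0.05. The standard error is the log2 fold change divided by the root of F, and 95% intervals use the total degrees of freedom. Log2 CPM for correlations used a prior count of 2.

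The 10 genes, the lists, the tests and the rule were chosen with earlier results of these data known. The rule named the 10 genes, from each list the 3 genes with the lowest p in the Myh6 and the 2 in the EIIa comparison, Hspa5, Hsp90b1, Ddit3 and Eif2ak3, and the 5 genes most like the effectors. Alternatives were DESeq2 1.42.0, RLE factors, other filters, a single fit of all 12 hearts, a replicate block, no mt- or NewGene loci, robust quasi-likelihood, limma 3.58.1 on log2 FPKM with pseudocounts of 1 and 0.1 (at least 0.5 FPKM in 3 hearts, or no filter), and each heart left out. Library totals alone, added after the data were seen, replaced TMM in a further fit. The tests were tested on simulated data.

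Deviations from the group mean of same-numbered Myh6-ctl and Myh6-tg hearts were correlated across genes (r = 0.33, 0.24 and 0.24, each the highest for its number). The labels do not say that these numbers pair the hearts. Between EIIa-tg and Myh6-tg hearts, which cannot be pairs, the own number was also the best match for replicates 1 and 3 (r = 0.11 and 0.27). Between the control groups it was for replicates 1 and 2 (r = 0.17 and 0.11). Every replicate 1 also shares its counts of Y-linked genes. The correlations therefore cannot show that the Myh6 hearts were paired. Positions come from GENCODE M21 (GRCm38). Python 3.11.15 with matplotlib 3.10.9 drew the figures.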

Additional observations from a re-analysis of the deposited data

Results flagged for a closer look

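For 6 of the 101 other pathway genes tested, the change in Myh6-tg hearts differed from that in EIIa-tg hearts, beside 3.92% of 15929 genes. Each had the higher value in the Myh6 model, beside 1.65% of all genes in that direction. The test was that of the difference over all 12 hearts (edgeR, adjusted over all genes tested). The difference on the log2 scale was 2.21 for Chac1 (adjusted p = 0.0320), 1.68 for Qsox1 (adjusted p = 0.00784), 1.21 for Erlec1 (adjusted p = 0.0237), 0.88 for Ufd1 (adjusted p = 0.0324), 0.81 for Creb3l2 (adjusted p = 0.0214) and 0.74 for Ubxn4 (adjusted p = 0.0420). Across 23 alternatives, the call of Qsox1 held in all, and that of Ubxn4 was lost in 11, of Ufd1 in 10, of Chac1 and Creb3l2 in 9 each and of Erlec1 in 5. Erlec1 fell in EIIa-tg and had a log2 fold change of 0.57 in Myh6-tg (adjusted p = 0.108). None of the 10 genes was among those whose difference passed.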

How the results depend on the processing

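Of the 10 genes, edgeR called 0 in each comparison. In the EIIa comparison 1 was called with DESeq2 (21.0% of all genes) and with a filter at 1 CPM in 3 hearts (19.9%). Limma called 3 on log2(FPKM + 1) or log2(FPKM + 0.1) (23.9% and 23.6%). There were 4 with library totals alone (21.3%) and 0 to 1 with a heart left out (0% to 26.6%). In the Myh6 comparison 3 were called with all 12 hearts in one fit (31.7% of all genes). Limma called 2 on either pseudocount (32.7% and 32.4%) and 1 with no filter (16.9%). There were 3 with library totals alone (26.2%) and 0 to 1 with a heart left out (5.01% to 26.7%). In the difference 0 to 1 were called with a heart left out (1.78% to 10.6% of all genes). Of the other pathway genes, 18 in the EIIa comparison became 0 at an adjusted p under 0.01 with a fold change of at least 2, 1 with all 12 hearts, 33, 32 and 0 with limma (pseudocount 1, 0.1, and 1 with no filter), 30 with library totals alone and 0 to 23 with a heart left out. The 25 in the Myh6 comparison became 4, 43, 59, 59, 46 and 53 in the same order, and 3 to 32 with a heart left out. In that order, the shares of all genes in the EIIa comparison were 0%, 1.43%, 23.9%, 23.6%, 0.00513%, 21.3% and 0% to 26.6%. In the Myh6 comparison they were 3.97%, 31.7%, 32.7%, 32.4%, 16.9%, 26.2% and 5.01% to 26.7%. Between controls, 0 became 2 with DESeq2 (2.64% of all genes) and 1 with no filter on low counts (0.338%). In the difference, 6 (3.92% of all genes) became 1 at these stricter thresholds (0.622%) and 14 with DESeq2 (8.56%). Limma gave 15, 11 and 11 (5.76%, 4.87% and 2.94%), and fits with a heart left out gave 1 to 13 (1.78% to 10.6%). The replicate block left the count of the 10 genes at 0 in each comparison. With it, 0.00671% of all genes were called in the EIIa, 20.9% in the Myh6 and 0.18% in the control comparison, and 4.08% in the difference. It gave 29 other pathway genes in the Myh6 comparison. In the EIIa comparison same-numbered hearts did not deviate together (r = 0.17, -0.11 and -0.10), the best match being the own number for replicate 1 alone. There the block left 0 other pathway genes, with 1 of all 14908 genes called. In Myh6-tg the block added 4 of the 101 other pathway genes (Prdx4, Ddit3, and, named after their values were seen, Faf2 and Sec63) and lost 0.

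Signs turned on the FPKM scale and with library totals alone, which move the median gene upward. Values with limma at pseudocount 1 (alike with and without filter), with limma at 0.1 and with library totals alone are given in this order. In the EIIa comparison they were 0.077, 0.079 and 0.073 for Pdia6, 0.062, 0.076 and 0.11 for Eif2ak3, 0.16, 0.18 and 0.19 for Creb3l2 and 0.026, 0.021 and 0.074 for Chac1. In the Myh6 comparison they were 0.18, 0.19 and 0.21 for Creld2, 0.13, 0.13 and 0.15 for Pdia6 and 0.046, 0.046 and 0.15 for Hspa5. In the difference they were 0.18, 0.18 and 0.19 for Xbp1 and 0.049, 0.049 and 0.078 for Pdia6. With a heart left out, signs turned in the EIIa comparison for Manf (-0.11 to 0.23), Hyou1 (-0.072 to 0.21), Chac1 (-0.41 to 0.11), Creb3l2 (-0.069 to 0.033) and Eif2ak3 (-0.25 to 0.071), between controls for Herpud1 (-0.039 to 0.53) and Hyou1 (-0.085 to 0.27), and in the difference for Xbp1 (-0.17 to 0.11). The cause was not tested. With 3 hearts a group, intervals of the 10 genes in the Myh6 comparison are wide, and a p over the threshold does not show that levels were alike.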
